A study of Sus scrofa with 18 samples.

Results

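The miR-148 and miR-152 family was followed through muscle and muscle-derived exosomes of pigs. The members were the rows of the miRNA count table whose names are those of miR-148a, miR-148b or miR-152, and the name rule uses no measured value, though the family was picked with earlier results of these data known. It gave 5 of the 465 mature miRNAs listed: ssc-miR-148a-3p, ssc-miR-148b-3p and ssc-miR-152, which are the guide strands of the 3 hairpins, and ssc-miR-148a-5p and ssc-miR-148b-5p, the opposite arms of the first pair. The species prefix ssc (pig) is left out from here on. All 5 passed the count filter, as did 252 miRNAs in all.

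The samples came from adult Hechuan black pigs, which the labels call castrated sows. Small RNA was sequenced from skeletal muscle tissue of the groups HC-L and HC-P and from exosomes isolated from the homogenised muscle of each, at 3 libraries per group and 12 in all. The study compared an oxidative with a glycolytic muscle, but which of these HC-L stands for, and which HC-P, is not given in the labels, nor whether the replicates are separate pigs, so p-values measure only the spread between these libraries. Exosome RNA was extracted with Trizol LS and tissue RNA with Trizol, so that an effect of the isolation or of the reagent cannot be told apart from one of exosome content in any comparison between them. Only the preparation from homogenised tissue is described, which does not separate vesicles of muscle fibres from those of other cells.

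MicroRNAs guide Argonaute proteins to messenger RNAs, mostly through the bases near their 5′ end, called the seed. miR-148a-3p, miR-148b-3p and miR-152 share a seed and therefore most of their predicted targets, which include the DNA methyltransferase DNMT1. In muscle, miR-148a has been described as promoting the differentiation of mouse myoblasts through the kinase ROCK1. Each hairpin yields a guide strand, which is loaded into Argonaute, and an opposite strand that is mostly degraded. In the RefSeq annotation of Sscrofa11.1, MIR148B lies within COPZ1 and MIR152 within COPZ2, 2 genes for subunits of the COPI vesicle coat, while MIR148A lies in no other gene, between the coding genes NFE2L3 and NPVF.

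Tissue libraries held 3964875 to 9016010 miRNA reads and exosome libraries 106040 to 959599, so 3 reads correspond to 0.333 to 0.757 counts per 1e6 reads (CPM) in tissue and to 3.13 to 28.3 CPM in exosomes. The labelled tissue was checked against the muscle miRNAs miR-1, miR-206, miR-133a-3p, miR-133b, miR-208b and miR-499-5p. All 6 were present in every group and together took 48.6% to 81.1% of the reads of a tissue library and 53.3% to 67.8% of those of an exosome library. HC-P tissue replicate 1 stood apart, with the lowest muscle share of 48.6%. Most fold changes and tested ratios that rest on it are given with and without it. Group means of shares and the correlations are given only with it. In these bulk samples, fewer cells of a type and less RNA per cell cannot be told apart.

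miR-148a-3p made up nearly all of the family. Among the reads of the 3 guide strands, which are of like length, it took 96.8% ± 1.70 (SD, n = 3) of HC-L and 90.3% ± 10.4 of HC-P tissue reads. Its share of the family in exosomes was 98.7% ± 0.318 for HC-L and 98.7% ± 0.335 for HC-P. The exosome libraries lay between 98.3% and 98.9% and the tissue libraries between 78.3% and 97.9%, with a narrow gap. No like value was computed for other miRNA families. The lowest share was that of HC-P tissue replicate 1, in which miR-148b-3p took 20.4% of the family, against 1.31% to 2.42% in the other 5 tissue libraries. miR-152 took 0.663% to 2.92% of the family in tissue and 0.512% to 0.992% in exosomes. The 3 guide strands together made up 1.90% ± 0.852 of all miRNA reads in HC-L tissue and 1.01% ± 0.391 in HC-P tissue, against 5.02% ± 0.867 and 4.67% ± 1.60 in HC-L and HC-P exosomes.

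**Figure D1:**
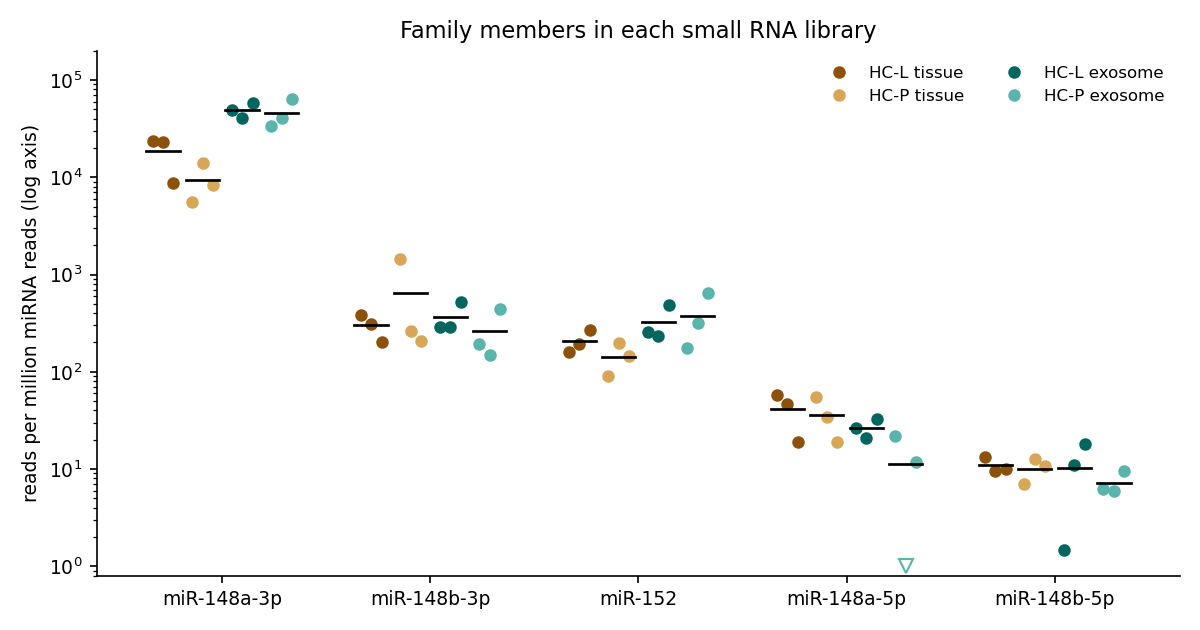
CPM (counts per 1e6 miRNA reads, from library totals, log axis) of the 5 family members in each of the 12 small RNA libraries; points are libraries, black bars are group means (n = 3), and the open triangle marks HC-P exosome replicate 3, which had 0 reads of miR-148a-5p. For miR-148a-3p the 6 exosome libraries sit between 33713 and 63580, all above the tissue libraries at 5519 to 23746, while the other members overlap.

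As a share of library reads, miR-148a-3p set the 6 exosome libraries above the 6 tissue libraries without overlap. It took 2.37%, 2.29% and 0.866% of the reads of HC-L tissue replicates 1, 2 and 3. In HC-P tissue it took 0.552%, 1.40% and 0.827%. The HC-L exosome values were 4.96%, 4.10% and 5.79%, and those of HC-P exosomes were 3.37%, 4.10% and 6.36%. The tissue libraries of the muscles thus overlapped one another, as did the exosome libraries, while tissue and exosomes did not. Counting error is small beside this spread: in the shallowest library, HC-P exosome replicate 3, the exact 95% binomial interval ran from 6.21% to 6.51%. Of all 252 tested miRNAs, 11.5% had every exosome library above every tissue library and 1.19% had every one below, and miR-148a-3p was the 1 family member of 5 in the former set, with 0 in the latter. It was the 4th or 5th most abundant miRNA in each exosome library, and in tissue it ranked from 5 to 25, the last in HC-P tissue replicate 1.

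This separation depended on how the libraries were scaled. With TMM, a scaling by the trimmed mean of miRNA ratios, the values of miR-148a-3p per 1e6 scaled reads were 31446, 42958 and 14203 in HC-L tissue and 45744, 41838 and 29732 in HC-L exosomes. In HC-P tissue they were 3435, 19508 and 15725, and in HC-P exosomes 29672, 29276 and 31259. The groups overlapped in HC-L, and in HC-P every exosome library was above every tissue library. The share of all miRNAs that separate in this way within HC-P with TMM was not computed. The log2 fold change of exosomes over tissue was 0.40 ± 0.55 (SE) in HC-L (95% interval -0.77 to 1.58, edgeR adjusted p = 0.655) and 1.22 ± 0.56 in HC-P (0.03 to 2.42, adjusted p = 0.109), so neither passed the threshold of 0.05. In HC-P it did pass with DESeq2 (log2 fold change 1.54, adjusted p = 0.0433) and with library totals (2.31, edgeR adjusted p = 0.00884). It also passed without HC-P tissue replicate 2 (2.06, edgeR adjusted p = 0.0388) and without HC-L tissue replicate 3 (1.66, edgeR adjusted p = 0.0399), and did not without HC-P tissue replicate 1 (0.87, edgeR adjusted p = 0.191). The scaling also moved the median log2 fold change of the 252 tested. From TMM to library totals, it went from -0.40 to 0.72 for HC-L and from -0.70 to 0.003 for HC-P. In HC-P the members did not all move by as much as the median. Relative to it, miR-148b-3p went from -1.05 to -1.30, miR-152 from 0.89 to 1.38 and miR-148b-5p from -0.78 to -0.57. Relative to that median, miR-148a-3p stood at 0.70 to 0.81 (HC-L) and 1.92 to 2.31 (HC-P) under the 4 scalings run. Among all 252 tested miRNAs, its log2 fold change with TMM ranked 72 from the highest for HC-L and 38 for HC-P. Among the 20 miRNAs most abundant in tissue, a set chosen after the values were seen, it ranked 2 for HC-L and 1 for HC-P. The authors' deposited table for HC-P lists miR-148a-3p with a log2 fold change of 1.53 (p = 0.0277, adjusted p = 0.165), from group means of 46464 normalised reads in exosomes and 16094 in tissue.

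**Figure D2:**
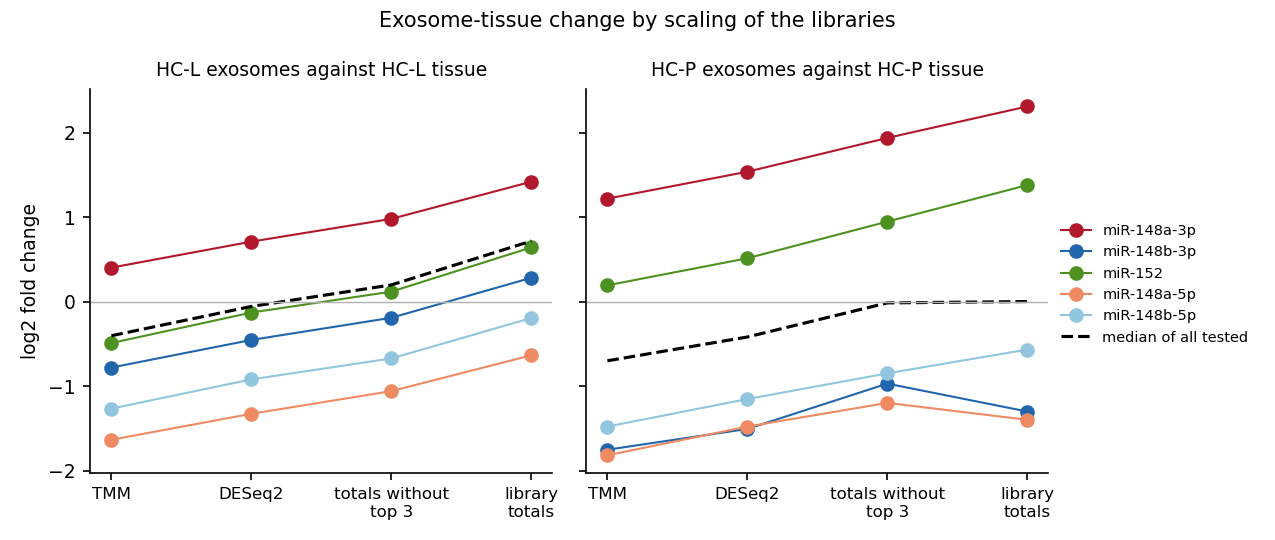
Log2 fold change of exosomes over tissue for the 5 members (lines) and the median of all 252 tested miRNAs (dashed), in HC-L (left) and HC-P (right), under 4 scalings of the libraries. miR-148a-3p is the highest member at every scaling and lies above the median, and in HC-L the whole set moves up by about as much as the median does, from -0.40 to 0.72.

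miR-148b-3p, the close relative of miR-148a-3p, was lower in exosomes than in tissue of the same muscle with TMM scaling, and this passed the test in HC-P. Its values per 1e6 TMM-scaled reads were 513, 575 and 333 in HC-L tissue and 265, 298 and 265 in HC-L exosomes. In HC-P tissue they were 897, 369 and 397, and in HC-P exosomes 170, 106 and 218. Every exosome library thus lay below every tissue library of its muscle, with HC-P tissue replicate 1 the highest of all 12. The share of all miRNAs that separate in this way with TMM was not computed. From library totals, exosomes and tissue overlapped, at 288 to 516 and 203 to 387 CPM in HC-L. In HC-P they were at 149 to 443 CPM in exosomes and 209 to 1441 in tissue. In HC-P exosomes miR-148b-3p fell by 1.75 on the log2 scale (SE 0.48, 95% interval -2.77 to -0.73, edgeR adjusted p = 0.0204). In HC-L its log2 fold change was -0.78 ± 0.46 (edgeR adjusted p = 0.251), which turned to 0.28 with library totals. As the median of all tested miRNAs was itself -0.70 in HC-P and -0.40 in HC-L, miR-148b-3p stood at -1.05 and -0.38 relative to it. Of the 5 members this was the 1 called change in HC-P, where edgeR called 25.8% of all tested miRNAs, 9.13% as higher and 16.7% as lower in exosomes. In HC-L, where edgeR called 16.3% of all, 6.35% as higher and 9.92% as lower, 0 of the 5 members were called by edgeR and 0 by DESeq2, and 1 had an unadjusted edgeR p under 0.05. The call of miR-148b-3p in HC-P held with DESeq2 (adjusted p = 0.0235). It was lost with library totals (log2 fold change -1.30, edgeR adjusted p = 0.291) and with totals that leave out the 3 most abundant miRNAs (-0.97, edgeR adjusted p = 0.191). It was also lost without HC-P tissue replicate 1 (-1.09, edgeR adjusted p = 0.0545), without HC-P exosome replicate 2 (-1.59, adjusted p = 0.0757) and without any 1 of the 3 HC-L tissue libraries (-1.49, adjusted p = 0.0646 to 0.0819). The authors' deposited table for HC-P gives -1.52 (p = 0.0269, adjusted p = 0.165).

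miR-152, the third guide strand, lay between the others. Its values per 1e6 TMM-scaled reads were 213, 363 and 438 in HC-L tissue and 237, 236 and 250 in HC-L exosomes. In HC-P tissue they were 55.9, 272 and 275, and in HC-P exosomes 154, 225 and 315. Tissue and exosome libraries overlapped in both muscles. The log2 fold change was -0.49 ± 0.56 in HC-L (95% interval -1.69 to 0.71, edgeR adjusted p = 0.583) and 0.20 ± 0.56 in HC-P (-1.01 to 1.40, adjusted p = 0.818), and the HC-L value turned to 0.64 with library totals and the HC-P value to -0.14 without HC-P tissue replicate 1.

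**Figure D3:**
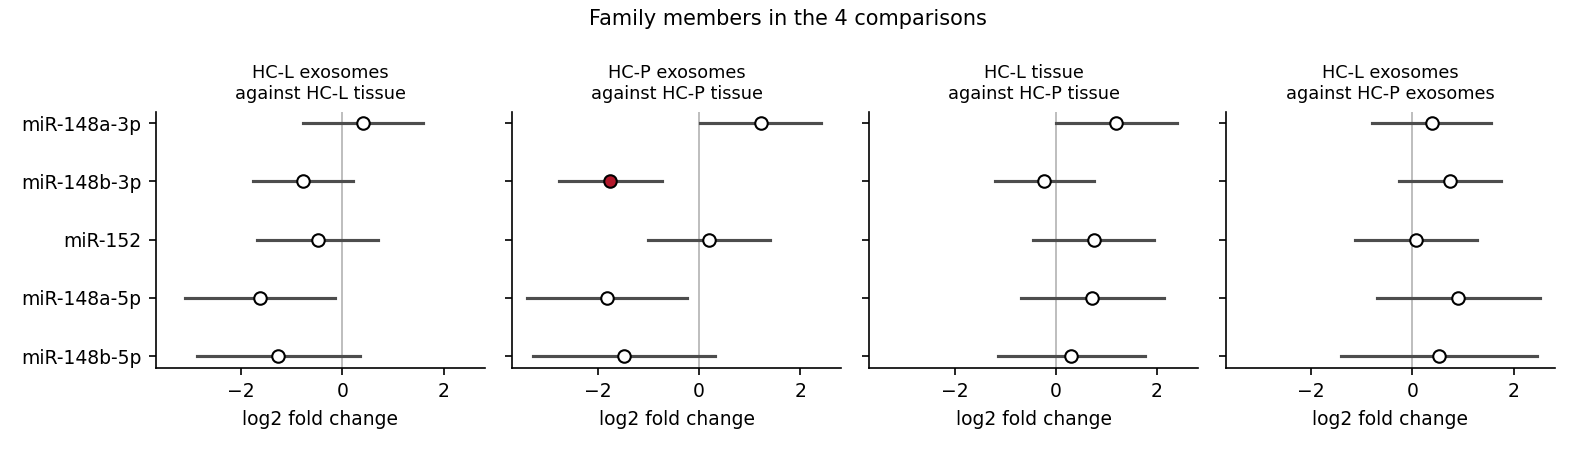
Log2 fold changes (circles) with 95% intervals (lines) of the 5 members in the 4 comparisons, from the edgeR fit with TMM scaling over 12 libraries; a filled circle marks an adjusted p under 0.05. The 1 filled circle is miR-148b-3p in HC-P exosomes against HC-P tissue, at -1.75.

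Ratios of 2 miRNAs within a library need no scaling between libraries, so miR-148a-3p was also set against each relative within each library. Reads of miR-148a-3p outnumbered those of miR-148b-3p by 61.3, 74.7 and 42.7 times in HC-L tissue and by 3.83, 52.9 and 39.6 times in HC-P tissue. The exosome ratios were 172, 141 and 112 for HC-L and 175, 276 and 143 for HC-P. Every exosome library was above every tissue library. HC-P tissue replicate 1 was the lowest of all, so leaving it out could not undo this separation. On the log2 scale with 0.5 reads added, the ratio went from 5.86 ± 0.409 in HC-L tissue to 7.12 ± 0.311 in HC-L exosomes and from 4.32 ± 2.08 to 7.56 ± 0.476 in HC-P (SD, n = 3). The mean rise over both muscles was 2.25 (exact two-sided permutation test within muscles, p = 0.005, the smallest that 400 permutations give; adjusted p = 0.0155 over 251 ratios), and 1.65 without HC-P tissue replicate 1 (exact adjusted p at most 0.0326 with any library left out). With the replicate number as a block it was not called (exact sign-flip test, adjusted p = 0.0608), nor was the ratio to miR-152 described next (adjusted p = 0.0608). Both had an unadjusted p of 0.0312, the smallest that 64 sign flips give. Whether the block weakens the rise can therefore not be read from the lost call.

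The ratio of miR-148a-3p to miR-152 showed a smaller rise with less separation. It was 147.5, 118 and 32.4 in HC-L tissue and 61.5, 71.7 and 57.1 in that of HC-P. Exosomes gave 193, 177 and 119 for HC-L and 193, 130 and 99.2 for HC-P. Tissue and exosomes did not overlap in HC-P, but HC-L tissue replicate 1 lay above HC-L exosome replicate 3, and 2 HC-L tissue libraries lay above the lowest HC-P exosome library. The mean rise was 1.02 on the log2 scale (exact permutation p = 0.01, adjusted p = 0.0251). It lost its call without HC-P tissue replicate 1 (1.01, exact adjusted p = 0.056), HC-P tissue replicate 3 (0.98, 0.0523), HC-L exosome replicate 1 (0.95, 0.0738) or HC-L exosome replicate 2 (0.98, 0.0757). These ratios are read against all miRNAs: the ratio of miR-148a-3p to another miRNA passed in 46.2% of the 251 cases and was higher in exosomes in 41.4%, and in 23.9% every exosome library was above every tissue library. Among these 251 ratios, the mean rise ranked 65 from the highest for miR-148b-3p and 156 for miR-152.

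**Figure D4:**
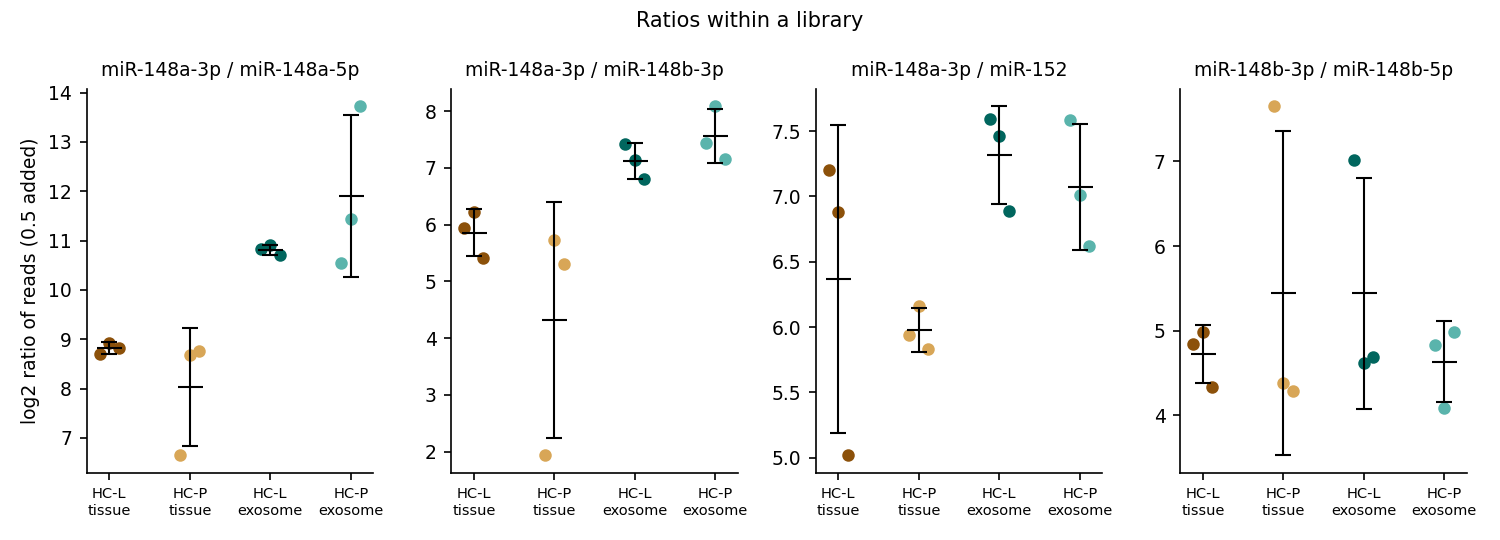
Log2 ratio of reads within each library (0.5 added to both counts) for miR-148a-3p over its 5p arm, over miR-148b-3p and over miR-152, and for the arms of miR-148b; points are libraries, bars are mean and SD (n = 3), and the vertical axes differ. In the first and second panels all exosome libraries lie above all tissue libraries, and in the last panel they overlap.

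The arms of the miR-148a hairpin moved apart between tissue and exosomes. miR-148a-5p had 419, 423 and 132 reads in HC-L tissue and 218, 222 and 127 in HC-P tissue, but 18, 13 and 9 in HC-L exosomes and 21, 2 and 0 in HC-P exosomes. There were 416, 489 and 456 reads of the 3p arm for each 5p read in HC-L tissue and 100, 411 and 436 in HC-P tissue, against 1858, 1990 and 1770 in HC-L exosomes and 1541 and 3454 in HC-P exosome replicates 1 and 2. In HC-P exosome replicate 3, a floor of 3 reads gives at least 2247 reads of 3p for each of 5p. No exosome library came near the highest tissue ratio of 489. The log2 ratio of the arms was higher in exosomes by 1.99 for HC-L and by 3.87 for HC-P, the latter set in part by the 0.5 reads added to counts of 2 and 0 and by the low ratio of HC-P tissue replicate 1. The mean rise was 2.93 (exact permutation p = 0.005, adjusted p = 0.0181 over 65 hairpins), 2.40 with 2 reads added, 2.90 after thinning every library to 106040 reads and 2.59 without HC-P tissue replicate 1 (exact adjusted p = 0.0342). With the replicate number as a block the rise was not called (exact sign-flip test, p = 0.0312, the smallest that this test gives, adjusted p = 0.0883). Of these 65 hairpins, 35.4% passed the test and 21.5% passed with a higher 3p share in exosomes, and in 12.3% every exosome library was above every tissue library. The rise of miR-148a ranked 6 from the highest.

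The fit gave miR-148a-5p a log2 fold change of -1.63 ± 0.69 in HC-L (95% interval -3.12 to -0.15, edgeR adjusted p = 0.117) and of -1.82 ± 0.73 in HC-P (-3.39 to -0.24, adjusted p = 0.076). Neither passed, apart from a fit without HC-P exosome replicate 1 (-3.21 in HC-P, edgeR adjusted p = 0.0462). The authors' deposited table for HC-L lists it at -1.29 (p = 0.0281, adjusted p = 0.0875). As the 0 reads in HC-P exosome replicate 3 allow up to 28.3 CPM, and 1 HC-P tissue library lay below that limit, a lower level than in every tissue library was not detectable at this depth.

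The arms of miR-148b showed no such separation. There were 29.0, 31.9 and 20.4 reads of the 3p arm for each of the 5p arm in HC-L tissue and 204, 21.1 and 19.7 in HC-P tissue, against 194, 26.3 and 28.4 in HC-L exosomes and 30.8, 25.0 and 47.0 in HC-P exosomes. HC-P tissue replicate 1 and HC-L exosome replicate 1 were high, the latter with 1 read of miR-148b-5p. The mean difference was -0.04 on the log2 scale (exact permutation p = 0.94) and 0.51 without HC-P tissue replicate 1, but miR-148b-5p had only 13 and 8 reads over the HC-L and HC-P exosome libraries, against 254 and 181 in tissue. Its own log2 fold changes were -1.27 ± 0.76 (edgeR adjusted p = 0.253) and -1.48 ± 0.84 (adjusted p = 0.192). Whether the arms of miR-148a and miR-148b differ in their shift was not tested.

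Marker miRNAs of other cell types and organs were also measured, with no test between tissue and exosomes, and their ranges overlapped for the liver, red cell, myeloid and lymphoid, and endothelial lists. The liver miRNA miR-122-5p, which also circulates in plasma, was at 32.4 to 1270 CPM in tissue and at 573 to 9195 in exosomes. The 3 liver miRNAs in the table of the 5 listed together took 0.00718% to 0.186% of HC-L and 0.0285% to 0.0634% of HC-P tissue reads, against 0.0708% to 0.307% for HC-L and 0.0591% to 0.958% for HC-P exosomes. The 7 myeloid and lymphoid miRNAs took 0.0100% to 0.0947% in tissue and 0.0408% to 0.277% in exosomes, and the 3 red cell miRNAs 0.120% to 1.53% and 0.180% to 0.555%. The 2 endothelial arms of miR-126 took 0.485% to 1.06% in tissue and 0.862% to 2.83% in exosomes. The 7 epithelial miRNAs present of 11 listed took at most 0.00137% in tissue and 0.00657% to 0.0453% in exosomes, the 1 list without overlap, with miR-141 and miR-429 at 0 in HC-L tissue, miR-429 at 0 in HC-L exosomes and miR-141 at 0 in HC-P exosomes. The part of these sources in the family's values was not tested.

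Between the muscles no member passed. miR-148a-3p was higher in HC-L than in HC-P tissue by 1.20 ± 0.56 on the log2 scale, with overlapping libraries (95% interval 0.003 to 2.39, edgeR adjusted p = 0.446), and this was rank 9 from the highest of 252. Values for the other members in tissue were -0.23 for miR-148b-3p, 0.75 for miR-152, 0.72 for miR-148a-5p and 0.31 for miR-148b-5p (edgeR adjusted p = 0.626 to 0.845). With HC-P tissue replicate 1 left out, miR-148a-3p went to 0.67, miR-152 to 0.14, miR-148b-3p to 0.22, miR-148a-5p to 0.55 and miR-148b-5p to -0.23. In tissue, edgeR called 0% of the 252 miRNAs and DESeq2 called 0, with 28 at an unadjusted edgeR p under 0.05.

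In exosomes, the difference between HC-L and HC-P was 0.38 ± 0.55 for miR-148a-3p (95% interval -0.80 to 1.56), 0.75 ± 0.47 for miR-148b-3p and 0.07 ± 0.56 for miR-152, and for miR-148a-5p and miR-148b-5p it was 0.91 ± 0.75 and 0.52 ± 0.91 (edgeR adjusted p = 0.991 for each). Without HC-P exosome replicate 1, the value of miR-148a-5p was 2.28 (edgeR adjusted p = 0.807). edgeR called 0% of all miRNAs there and DESeq2 called 2, with 8 at an unadjusted edgeR p under 0.05. The exosome-tissue difference itself did not pass between muscles for any member: it was lower in HC-L by 0.82 ± 0.78 for miR-148a-3p (a value of -0.82, edgeR adjusted p = 0.971) and higher by 0.97 ± 0.65 for miR-148b-3p (adjusted p = 0.956). For miR-152 it was -0.68 ± 0.79. Without HC-P tissue replicate 1 these values were -0.37, 0.44 and -0.15. Again 0% of the 252 were called by edgeR, with 8 at an unadjusted p under 0.05. Intervals of this width leave room for differences of more than 1 on the log2 scale.

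The miRNAs whose levels ran most like miR-148a-3p over the 12 libraries were miR-98, miR-7-5p, let-7f-5p, miR-26a and miR-4331-3p. As a description over 125 miRNAs with a mean of at least 50 CPM, Pearson's r of log2(CPM + 1) was 0.895, 0.853, 0.843, 0.840 and 0.840. The libraries share their tissue or exosome preparation, and within these sets the likeness mostly fell away: over the 6 tissue libraries r was 0.594, 0.756, 0.376, 0.168 and 0.042, and over the 6 exosome libraries 0.250, 0.833, -0.131, 0.214 and 0.355. Of the family, miR-152 ranked 10 of 125 (r = 0.751, with 0.439 in tissue and 0.919 in exosomes) and miR-148b-3p ranked 85 (r = -0.215, with -0.364 and 0.836). HC-P tissue replicate 1 had the highest miR-148b-3p (1441 CPM) and the lowest miR-148a-3p (5519 CPM) of the tissue libraries. The r of miR-148b-3p without this library was not computed, so its negative values may rest on that library alone.

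The muscle mRNA table of HC-L against HC-P holds only genes called by the authors, so the share called among all genes cannot be given. The counts of listed genes below therefore have no background to be read against. Of 36 genes reported as targets of miR-148a, miR-148b or miR-152 in human, mouse or cattle, 1 was among its 522 genes. This was KLF5, a Krüppel-like transcription factor. In the authors' deposited table its HC-L signal was 1391, 2390 and 1183, above the HC-P signal of 219, 339 and 198 without overlap, with a log2 fold change of 2.71 (adjusted p = 3.72e-12). Of the 522 genes, 356 were higher and 166 lower in HC-L. DNMT1 and ROCK1 were not among the called genes, nor were the host genes COPZ1 and COPZ2, nor any of 9 genes of Argonaute proteins and miRNA processing. The authors' deposited table gives the names of related miRNAs for 320 genes, 244 different names in all, and 0 of these names belong to the family.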

How the data were processed

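For each library the authors deposited a count of reads for every mature miRNA and a TPM value, which equals the count over the library total times 1e6. Their deposited tables of changed miRNAs and mRNAs give a group signal, a log2 fold change and a p-value. Of the aligner, genome build, miRNA release and counting rule, nothing was given in the sources used here. Counts were fitted in R 4.3.3 with edgeR 4.0.16: filterByExpr by group, TMM scaling, 1 quasi-likelihood fit over 12 libraries with a coefficient per group, and Benjamini-Hochberg adjustment over 252 miRNAs, with an adjusted p under 0.05 called. DESeq2 1.42.0 was an alternative. The fit and the ratio test were tested on simulated data. Log2 ratios within a library had 0.5 reads added, and exosome and tissue labels were permuted exactly within muscles (SciPy 1.17.1 for the adjustment), over hairpins with at least 10 reads of each arm in all. As the reads carry no molecular identifiers, the intervals and floors cover only counting error.

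All family members, the 5 miRNAs most like miR-148a-3p and all listed genes in the mRNA table were named. Lists, like the members, were chosen with earlier results of these data known, and the ranking among 20 abundant miRNAs was chosen after the values were seen. Same-numbered libraries deviated together between HC-L tissue and HC-L exosomes (r = 0.371 to 0.527), between tissues (0.128 to 0.230) and between exosomes (0.211 to 0.342), but not throughout between HC-P tissue and HC-P exosomes (0.036 to 0.140). The mRNA columns were assigned to groups only, and no test was run on them. miRNA and promoter sequences were not used here.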

Additional observations from a re-analysis of the deposited data

How the results depend on the processing

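With the replicate number as a block, the sign-flip test of the ratios can give no p below 0.0312. After adjustment the miR-148a arm ratio (2.93, exact sign-flip adjusted p = 0.0883) and the ratio to miR-148b-3p (2.25, adjusted p = 0.0608) were not called, nor were those to the other members. The unadjusted p of each of these ratios was at that limit, so the lost calls do not tell whether the block weakens the rises. In the edgeR fit the replicate block changed no call of a member, and miR-148b-5p turned to -0.40 for the difference between muscles. miR-148a-3p in HC-P went to 2.31 with library totals, 1.94 with totals that leave out the 3 most abundant miRNAs, and 1.54 with DESeq2, all called, and ran from 0.87 to 2.06 with a library left out. miR-148b-3p in HC-P went to -1.30 and -0.97 with those totals, neither called, and ran from -1.90 to -1.09. Values that turned sign were never called: miR-148b-3p in HC-L (0.28 with library totals), miR-152 in HC-L (0.64 and 0.12 with both totals) and between exosomes (-0.21 and -0.15 with both totals, -0.055 with DESeq2, -0.011 without the filter), and miR-148b-5p between tissues (-0.080 without the filter). With a library left out, those that turned ran from -0.56 to 0.054 and -0.14 to 0.89 for miR-152 in HC-L and HC-P and -0.11 to 0.26 between exosomes, from -0.68 to 0.22 for miR-148b-3p and -0.23 to 0.61 for miR-148b-5p between tissues, from -0.44 to 0.51 for the miR-148b arm ratio, and, for the difference between muscles, from -0.16 to 1.49 for miR-148a-5p and -0.30 to 0.71 for miR-148b-5p. Without a sign turn, miR-148a-5p between exosomes ran from 0.39 to 2.28. The family's share without the 3 most abundant miRNAs was 8.41% and 3.92% in HC-L and HC-P tissue and 16.4% and 14.5% in exosomes. Calls over all miRNAs numbered 41 in HC-L (16 higher) and 65 in HC-P (23 higher), against 22 (19 higher) and 36 (31 higher) with library totals, 26 (21 higher) and 49 (39 higher) without the top 3, 48 (27 higher) and 67 (34 higher) with DESeq2, and 10 to 81 and 31 to 83 with a library left out, the highest both without HC-P tissue replicate 1, while between tissues 28 were called without the filter. The cause of these changes was not tested. Exosome depth limits the 5p arms most, with 63 reads of miR-148a-5p and 21 of miR-148b-5p in all 6 exosome libraries.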
